A study of Mus musculus with 116 samples.

Results

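The genes described here are 10 secreted signals of the mouse: 8 chemokines (Ccl2, Ccl5, Ccl7, Cxcl1, Cxcl5, Cxcl10, Cxcl12 and Cx3cl1), the cytokine Il6 and the growth factor Csf1. They were taken by name from a list, and all 10 were among the 40202 genes of the count tables. The 116 libraries came from nanoSPLITS, a method that divides the contents of a lysed cell, or of a few, between RNA sequencing and protein measurement, and the RNA side is described here. One part of the series was an input series of the C10 line with 1 cell (n = 8), 3 cells (n = 6) or 10 cells (n = 6) per library. The other was single cells of C10 (n = 48, of which 46 held at least 1000 counts and were used) and of SVEC (n = 48). C10 is labelled an alveolar type II epithelial line and SVEC an endothelial line. Both were grown under standard conditions with no treatment, and the labels name no genotype, culture, passage or batch. Libraries were prepared from full-length cDNA (SMART-Seq v4 Plus).

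Chemokines are small secreted proteins that guide the movement of leukocytes along a gradient by binding receptors on their surface. Ccl2 and Ccl7 draw monocytes through the receptor Ccr2, Cxcl1 and Cxcl5 draw neutrophils through Cxcr2, and Cxcl12 holds or draws Cxcr4-bearing cells such as blood progenitors. In lung epithelium and in endothelium most of these genes are known as targets of the inflammatory transcription factor NF-kB, whereas Cxcl12 is made without stimulation by many stromal cells. Cxcl10 is a target of interferon signalling, and Cx3cl1 is made as a membrane protein that can be shed.

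The families are named for the spacing of the first cysteines of the mature protein, and that spacing is shown because it sorts the members into the groups used below. The stretches are coding sequence from the GENCODE M21 transcripts, 5′ to 3′, with the cysteine codons in capitals. The codons lie next to each other in Ccl2, Ccl7 and Ccl5 and are parted by 1 codon in Cxcl1, Cxcl5, Cxcl12 and Cxcl10. They are parted by 3 codons in Cx3cl1.
Ccl2: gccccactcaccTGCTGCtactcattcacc
Ccl7: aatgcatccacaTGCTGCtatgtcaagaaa
Ccl5: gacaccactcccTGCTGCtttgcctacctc
Cxcl1: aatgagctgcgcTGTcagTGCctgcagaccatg
Cxcl5: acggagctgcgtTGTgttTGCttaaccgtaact
Cxcl12: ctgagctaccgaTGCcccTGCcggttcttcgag
Cxcl10: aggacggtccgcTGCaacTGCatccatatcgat
Cx3cl1: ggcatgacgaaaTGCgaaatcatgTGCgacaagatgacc

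Total counts per library were 430798 to 15385625 in the 1-cell input libraries, 6889508 to 14018116 with 3 cells and 8313314 to 14778988 with 10 cells. They were 83188 to 5911755 in the C10 single cells used and 5122 to 2831907 in the SVEC single cells, with medians of 1801477 (all 48 C10 cells) and 434945. Values are in CPM, a gene's count for every 1000000 counts of its library, or as pooled CPM, the summed counts of a group over its summed totals. The 1-cell input replicate 1 stood apart, with 430798 counts, 64.6% of them mitochondrial, and no count of any member. Defining markers of the labelled cell types were at or near 0 in the single cells. Of 12 endothelial markers, 0 had a count in at least 50% of the cells of either line, with summed levels of 0 to 138 CPM in SVEC (median 0) and 0 to 48.3 CPM in C10 (median 0.596), and Kdr and Vwf had no count. Of 14 alveolar epithelial markers, 2 did so in C10, with a summed level of 0 to 216 CPM (median 2.48) against 0 to 146 CPM in SVEC, and Sftpa1, Sftpb, Sftpc and Sftpd had no count. Of 8 fibroblast markers, 3 (Dcn, Col1a1 and Col3a1) had a count in at least 50% of the cells of each line, and Lum and Thy1 had none. The 8 summed to a median of 2392 CPM in C10 (476 to 15368) and 1251 CPM in SVEC (0 to 11331). The lines are therefore called by their names, and the part of these markers in the results below was not tested.

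Of the 10 members, 6 could be read from these counts and 4 could not. Ccl5, Cxcl10, Il6 and Csf1 held 0 counts in all 116 libraries. In the RefSeq annotation of GRCm38.p6, the whole span of each lies within the span of another gene: Ccl5 within Gm32650, Cxcl10 within Art3, Il6 within A230098N10Rik and Csf1 within Gm40121. A gene placed in this way was almost never counted in these libraries. Among 894 protein-coding genes with the whole span inside another gene, 872 (97.5%) were at 0 in every library, against 4505 of 14004 (32.2%) with no overlap and 662 of 6814 (9.72%) with part of the span shared. Genes wholly inside another gene in RefSeq were also classed by the GENCODE M21 annotation. Of those within an intron of a gene on the opposite strand, 221 of 221 (100%) were at 0. This class was drawn from the genes so placed in RefSeq and is no separate support. The zeros of Ccl5, the T-cell and monocyte attractant, of the interferon target Cxcl10, of Il6 and of the macrophage growth factor Csf1 are therefore no reading of their expression. Csf2, the granulocyte-macrophage growth factor, and Ifit1, an interferon-induced gene, share this position and were likewise at 0 throughout.

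**Figure D1:**
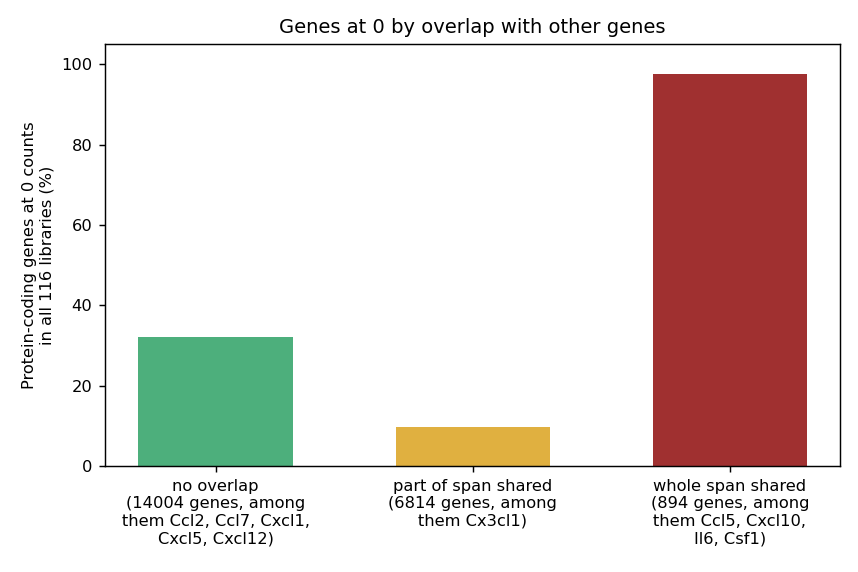
Share of protein-coding genes at 0 counts in all 116 libraries (y axis, %) by how much of the gene's span is shared with another gene in the RefSeq annotation (x axis), with the members in each class named under the bar. The bar for genes wholly inside another gene, the class of Ccl5, Cxcl10, Il6 and Csf1, stands at 97.5%.

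Ccl2, Ccl7, Cxcl1, Cxcl5 and Cxcl12 overlap no other gene. Cx3cl1 shares 12.9% of its span with Gm51543. Ccl2 and Ccl7 are related in sequence, with 72.4% identity over 290 aligned coding bases. Their longest shared run was 23 bases against a read length of 150, and no longer run was found between either gene and any of the 55 genes compared. Ambiguous reads made up 3.66 to 10.00% of the reads assigned or ambiguous in the libraries used.

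Each single-cell library is 1 cell and no culture is named, so each line counts as 1 sample and the lines were compared without a test. No batch is named either, so line and batch cannot be told apart. Intervals are exact Poisson intervals for pooled CPM and exact binomial (Clopper-Pearson) intervals for shares of cells, at 95%. The Poisson intervals cover counting error only, and the binomial intervals cover the sampling of cells within a line. Neither is a test between lines. Since no molecular identifiers are described, PCR copies were counted as reads. Of the 6 readable members, C10 cells held a count of 1 to 5 and SVEC cells of 0 to 5: 23 of 46 C10 cells held 3, and 14 of 48 SVEC cells held 3. No cell held all 6.

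Cxcl12, the homeostatic ligand of Cxcr4, was the member found in most cells and was at nearly the same level in both lines. It had a count in 46 of 46 C10 cells (100%, interval 92.3 to 100%) and in 43 of 48 SVEC cells (89.6%, 77.3 to 96.5%). In C10 cells the lowest, median and highest levels were 11.6, 1381 and 3854 CPM, and in SVEC cells 0, 929 and 5574 CPM. All C10 cells lay within the SVEC range, and the highest SVEC cells lay above every C10 cell. Cxcl12 was spread less among C10 cells, with a coefficient of variation of 58.5%, than among SVEC cells, with 91.6%. The 5 SVEC cells without a count had a median total of 166762 counts, against 485763 in those with one. Pooled levels were 1393 CPM (1385 to 1400) in C10 and 1348 CPM (1335 to 1361) in SVEC, a log2 ratio of 0.05. That ratio lay between -0.05 and 0.29 over the other settings tried and so has no stable sign.

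Ccl2, the main monocyte attractant, was present in most cells of both lines at levels that ran over several orders of magnitude. It had a count in 37 of 46 C10 cells (80.4%, 66.1 to 90.6%) and 32 of 48 SVEC cells (66.7%, 51.6 to 79.6%). After thinning each library to 100000 counts, which left 45 C10 and 42 SVEC libraries, the shares were 77.8% and 71.4%. The lowest, median and highest levels were 0, 174 and 5464 CPM in C10, and 0, 209 and 7582 CPM in SVEC. High and low cells occurred in both lines. Pooled levels were 693 CPM (688 to 698) in C10 and 539 CPM (531 to 548) in SVEC, a log2 ratio of 0.36. The direction rests on the weighting: with libraries weighted equally the means were 660 and 794 CPM, a log2 ratio of -0.27, and after thinning the ratio was -0.21. SVEC cell 40 alone held 32.4% of that line's Ccl2 counts, and without it the pooled ratio was 0.89.

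Ccl7, a second ligand of Ccr2, followed Ccl2 in both level and spread. It had a count in 37 of 46 C10 cells (80.4%) and 29 of 48 SVEC cells (60.4%, 45.3 to 74.2%), or 80.0% and 66.7% after thinning. Its lowest, median and highest levels were 0, 227 and 4379 CPM in C10 and 0, 150 and 8530 CPM in SVEC. The highest cells of both lines stood far above the medians. Pooled levels were 692 CPM (687 to 698) and 592 CPM (583 to 601), a log2 ratio of 0.23. The ratio turned to -0.18 without C10 cell 20, which held 29.2% of the C10 counts, and to -0.11 with libraries weighted equally. It rose to 0.67 without SVEC cell 40.

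Cxcl1, a neutrophil attractant, was the readable member with the largest difference among those common enough to be compared. It had a count in 7 of 46 C10 cells (15.2%, 6.34 to 28.9%) and 21 of 48 SVEC cells (43.8%, 29.5 to 58.8%). The thinned shares, 15.6% and 45.2%, kept that order. Cells with a count ranged from 10.7 to 580 CPM with a median of 153 CPM in C10. In SVEC they ranged from 30.9 to 4162 CPM with a median of 910 CPM. Most cells of each line had no count, so the medians over all cells were 0 in both. Pooled Cxcl1 was 29.4 CPM (28.3 to 30.5) in C10 and 448 CPM (440 to 456) in SVEC, 15.3-fold higher in SVEC (14.7 to 15.9). Over the other settings tried the log2 ratio of C10 over SVEC lay between -4.53 and -3.68. The largest move came from leaving out C10 cell 40, which held 35.1% of the C10 counts, and gave 23.1-fold.

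Cxcl5, another neutrophil attractant, had counts in C10 cells and none in SVEC cells. It had a count in 7 of 46 C10 cells (15.2%), at 5.00 to 120 CPM, and in 0 of 48 SVEC cells, which allows a share of up to 6.25% by a limit of 3 cells and up to 7.40% by the exact interval. Pooled Cxcl5 was 8.64 CPM (8.07 to 9.24) in C10. Against a floor of 3 counts over all SVEC cells, 0.103 CPM, that is 83.5-fold higher in C10, or 54.7-fold without C10 cell 14. These folds are no lower bounds, because the floor is a set value and the exact upper limit in SVEC was 0.127 CPM. After thinning the ratio to the floor was 3.32 on the log2 scale (9.96-fold) against 6.38 before. In that draw Cxcl5 was found in 6 of 45 C10 cells, and in a separate draw of the same depth in 7 of 45 (15.6%). The 7 C10 cells with Cxcl5 and the 7 with Cxcl1, each 15.2% of the cells, had 1 cell in common. All of them also had Ccl2, which had a count in 80.4% of all C10 cells. Ccl7, also in 80.4%, was in 4 of the 7 cells with Cxcl5 and 6 of the 7 with Cxcl1. With so few cells, no link between the genes is read from these numbers.

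Cx3cl1, the membrane-bound chemokine that holds leukocytes on endothelium, was rare in both lines. It had a count in 4 of 46 C10 cells (8.70%, 2.42 to 20.8%) and 7 of 48 SVEC cells (14.6%, 6.07 to 27.8%). Cells with a count reached 20.1 CPM in C10 and 104 CPM in SVEC. Pooled Cx3cl1 was 1.15 CPM (0.947 to 1.38) in C10 and 11.9 CPM (10.6 to 13.2) in SVEC, 10.3-fold higher in SVEC. With libraries weighted equally it was 6.20-fold, and 6.80-fold without SVEC cell 25, and without C10 cell 21 the log2 ratio went from -3.37 to -4.08. All 4 C10 cells and all 7 SVEC cells with Cx3cl1 also had Ccl2, a gene counted in 80.4% of all C10 and 66.7% of all SVEC cells.

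**Figure D2:**
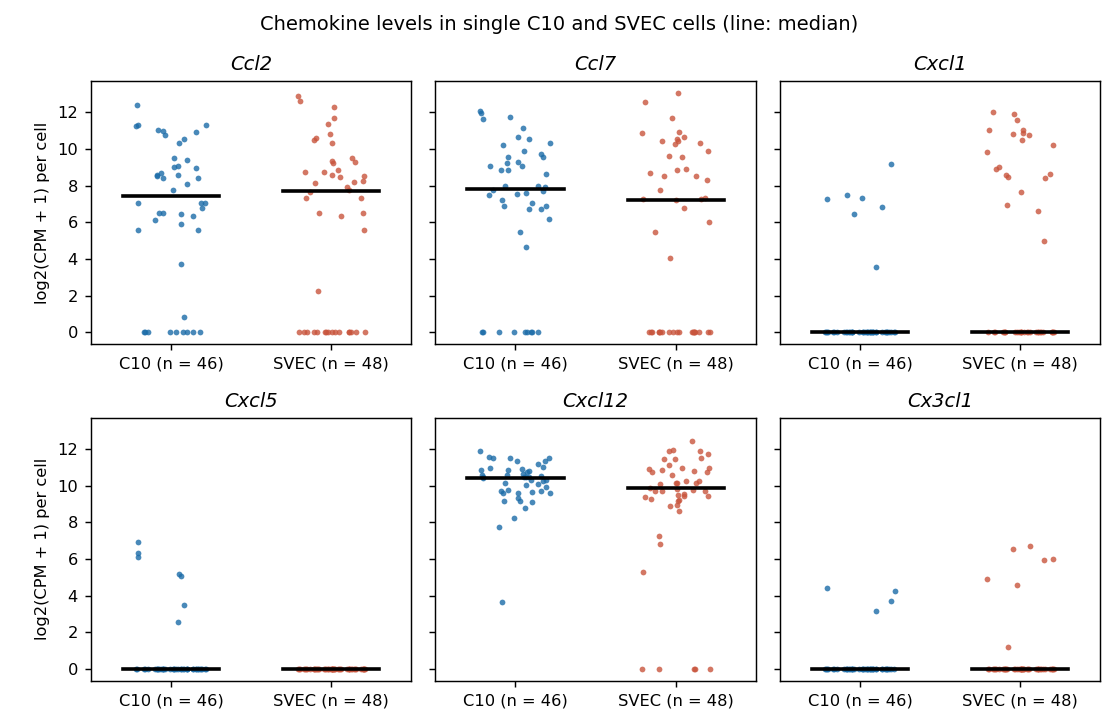
Level of each of the 6 readable members (log2(CPM + 1), y axis) in every single cell of C10 (46) and SVEC (48), 1 point per cell, with the median of each line marked. Cxcl12 sits above 0 in all C10 cells, Ccl2 and Ccl7 spread from 0 to 5464 and 4379 CPM in C10, and Cxcl5 is at 0 in every SVEC cell.

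**Figure D3:**
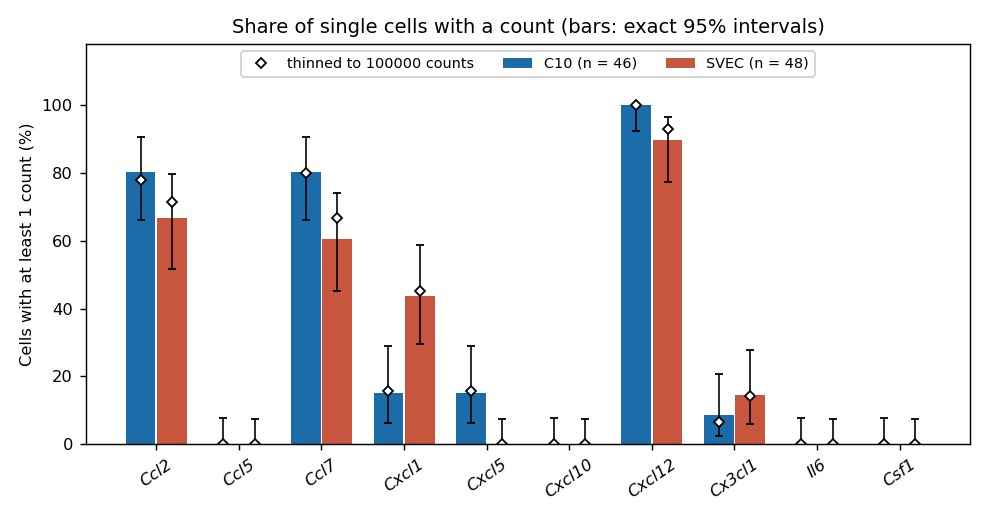
Percent of single cells with a count of each member (x axis groups; y axis, %), C10 (n = 46) and SVEC (n = 48), with exact binomial 95% intervals and open diamonds for the share after thinning to 100000 counts. Ccl5, Cxcl10, Il6 and Csf1, which could not be read, stand at 0. Cxcl1 stands at 15.2% in C10 and 43.8% in SVEC. The intervals describe the cells of a line and are no test between lines.

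Of 9303 genes with a count in at least 25% of the cells of either line, 1290 (13.9%) differed at least 4-fold in pooled CPM, 724 (7.78%) higher in C10 and 566 (6.08%) higher in SVEC. Of the members, 4 met that filter (Ccl2, Ccl7, Cxcl1 and Cxcl12), and 1 of them, Cxcl1, passed 4-fold, toward SVEC. Cxcl1 met the filter only through SVEC, at 43.8% of cells against 15.2% in C10. Cxcl5 and Cx3cl1 were below the filter and are given as values only. Without the filter, 1 member (Cxcl5) passed toward C10 and 2 (Cxcl1 and Cx3cl1) toward SVEC, against 2223 and 2461 of 15901 genes. The count of 1 and its direction thus depend on the filter. TMM normalization moved the median log2 ratio of all genes from -0.003 to 0.245 and the share of calls higher in C10 from 56.1% to 67.0%. Against that shift, Cxcl12 (0.29 under TMM) lay close to the median gene and Ccl2 (0.61) and Ccl7 (0.47) above it.

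Per length of transcript, pooled levels in CPM per kilobase can be set beside each other across genes. In C10 they were 853 for Ccl2, 865 for Ccl7, 30.8 for Cxcl1 and 5.48 for Cxcl5. In SVEC they were 663 for Ccl2, 739 for Ccl7 and 470 for Cxcl1. Cxcl12 has transcripts of 1878 to 5627 bases, which gives 247 to 742 in C10 and 240 to 718 in SVEC. In SVEC, Cxcl12 lay below Ccl7 at every transcript length, and its order against Ccl2 depends on which transcript was read. In the pooled C10 single cells it lay below both. In the C10 input libraries the order against Ccl2 depended on the transcript with 1 cell (272 to 816 against 723). With 3 cells the order against both did (370 to 1108, against 971 for Ccl2 and 898 for Ccl7). Pooled levels also lean on the highest cells: median CPM in C10 single cells was 1381 for Cxcl12, 174 for Ccl2 and 227 for Ccl7.

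Among single cells of each line, Ccl2 and Ccl7 tended to be high in the same cells. In C10 both had a count in 32 cells, 5 had Ccl2 without Ccl7, 5 had Ccl7 without Ccl2 and 4 had neither. In SVEC the numbers were 24, 8, 5 and 11. Spearman's rho of their CPM was 0.72 over 45 C10 cells and 0.61 over 42 SVEC cells, given as descriptions because the cells of a line share a sample. Where both were present, the ratio of Ccl7 to Ccl2 counts ran from 0.211 to 136 in C10 (median 1.19) and from 0.138 to 6.08 in SVEC (median 1.22). The genes are thus not in a fixed ratio from cell to cell. Of 5714 genes compared in C10, Ccl7 was the closest to Ccl2 and Ccl2 the closest to Ccl7, and this held in SVEC over 3524 genes. The next closest in C10 was Atp5g1, a subunit of the mitochondrial ATP synthase, with rho 0.71 to Ccl2 and 0.72 to Ccl7. The third closest were Nme1 for Ccl2 (0.58) and Sub1 for Ccl7 (0.62). In SVEC the next closest were Dynlt1a and Dynlt1f for Ccl2 (each 0.51), and Kpna3 (0.54) and 4930481A15Rik (0.53) for Ccl7. The rho of Ccl2 with the library total was 0.12 in C10 and -0.33 in SVEC, and that of Ccl7 was -0.12 and 0.08.

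**Figure D4:**
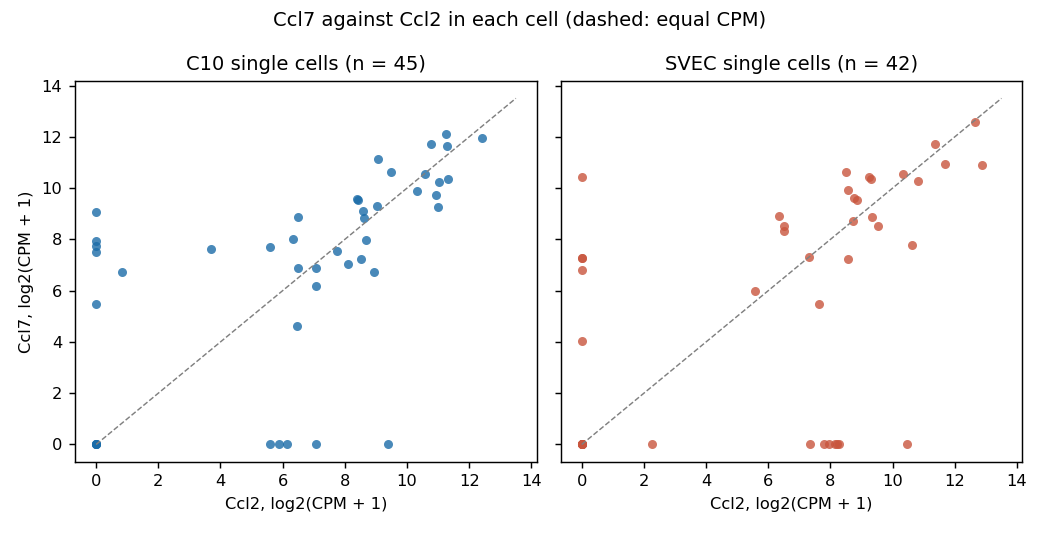
Ccl7 against Ccl2 (both log2(CPM + 1)) in the single cells with at least 100000 counts, 45 of C10 and 42 of SVEC, 1 point per cell, with a dashed line where both levels are equal. Points rise together in both lines (rho 0.72 in C10, 0.61 in SVEC), with cells on each axis that held only 1 of the genes.

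Cxcl12 did not share this pattern. Its rho with Ccl2 was -0.04 in C10 and -0.17 in SVEC, and with Ccl7 0.32 and -0.12. The genes closest to Cxcl12 were Hotairm1 (0.51), Ap1s1 (0.47) and Snhg20 (0.47) in C10, and Fscn1 (0.59), Marcks (0.55) and Mcm4 (0.52) in SVEC. The 99th percentile of the absolute rho over all genes compared was 0.39 to 0.47 for these members, and the third-ranked genes of Cxcl12 lie nearest to it. Cxcl1 and Ccl7 had a rho of 0.42 in SVEC and 0.00 in C10.

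The RefSeq table for GRCm38.p6 held promoters of 6 of the 10 members, and none for Ccl2 or Ccl7. Of the 4 members common enough to be compared, the promoters of Cxcl1 and Cxcl12 are therefore shown. Each runs 5′ to 3′ on the gene's strand from 250 bases before the start site to 50 after it. Capitals mark matches to GGGNNNNNCC, an NF-kB-like motif searched on both strands with overlapping matches joined. Cxcl1 lies at chr5:90890995-90891294 on the plus strand and has matches at 2 separate places, starting at positions -90 and -71 from the start site. Cxcl12 lies at chr6:117168285-117168584 on the plus strand and has a match at 1 place, starting at position -36. The motif occurs in 50.8% of the 32851 promoters of this length that were searched and at 2 or more places in 21.9%. The search left out 1 chromosome and repeated starts of the same gene. A match is a description of the letters and no evidence of binding.
Cxcl1: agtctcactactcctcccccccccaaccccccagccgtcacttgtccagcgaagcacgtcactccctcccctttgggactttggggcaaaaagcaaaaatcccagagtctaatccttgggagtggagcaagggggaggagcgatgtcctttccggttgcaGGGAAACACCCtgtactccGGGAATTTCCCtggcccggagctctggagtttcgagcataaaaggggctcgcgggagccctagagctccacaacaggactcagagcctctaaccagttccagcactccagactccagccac
Cxcl12: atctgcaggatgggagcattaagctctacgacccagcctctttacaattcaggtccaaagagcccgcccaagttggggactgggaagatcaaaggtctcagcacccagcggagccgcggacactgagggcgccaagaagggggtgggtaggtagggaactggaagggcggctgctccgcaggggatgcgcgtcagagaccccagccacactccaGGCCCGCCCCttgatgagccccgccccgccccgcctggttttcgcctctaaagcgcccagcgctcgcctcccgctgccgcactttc

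In the input series all libraries were C10, and Cxcl12, Ccl2 and Ccl7 were again the members at the highest CPM. Libraries of 3 and 10 cells are sums over cells, in which fewer expressing cells and less RNA per cell cannot be told apart. The Ccl2 levels of the 1-cell libraries were 0, 1674, 1110, 190, 110, 216, 238 and 354 CPM for replicates 1, 2, 5, 6, 9, 10, 13 and 14. With 3 cells they were 353, 333, 206, 877, 864 and 1949 CPM, and with 10 cells 1421, 2673, 1799, 868, 1193 and 1305 CPM, for replicates 1, 2, 5, 6, 9 and 10. The 10-cell values lay above most of the 3-cell values, but the groups overlapped. The coefficient of variation of Ccl2 was 121% with 1 cell, 84.7% with 3 and 40.9% with 10, and 108% with 1 cell without replicate 1.

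Ccl7 levels of the same 1-cell libraries were 0, 2999, 2325, 228, 214, 307, 289 and 1601 CPM. With 3 cells they were 731, 730, 900, 958, 475 and 449 CPM and with 10 cells 1405, 2560, 1955, 691, 1221 and 1072 CPM. The 1-cell libraries fell into very high and low values, while the 3-cell libraries lay close together. The coefficients of variation were 116%, 29.8% and 45.2%. Ccl2 and Ccl7 were not high in the same 3-cell libraries, with a rho of -0.37 (n = 6), against 0.94 with 10 cells (n = 6) and 0.98 with 1 cell (n = 8, or 0.96 without replicate 1), given as descriptions. Cxcl12 levels were 0, 1196, 2220, 436, 2272, 732, 2329 and 2593 CPM with 1 cell. They were 2464, 1562, 2705, 1046, 2313 and 2763 CPM with 3 cells and 1681, 1890, 2332, 1428, 885 and 1197 CPM with 10 cells. The 3 groups overlapped for Cxcl12, and its coefficients of variation were 68.2%, 32.2% and 32.8%.

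Cxcl1 had no count in any 1-cell input library. With 3 cells it was at 0, 42.0, 3.67, 73.9, 36.7 and 0.276 CPM and with 10 cells at 79.3, 26.0, 139, 0, 0 and 22.6 CPM. Cxcl5 had a count in 1 of the 8 libraries of 1 cell (replicate 13, 27.9 CPM), in 3 of 6 of 3 cells (13.3, 36.7 and 56.4 CPM) and in 6 of 6 of 10 cells (6.48 to 69.4 CPM). The number of libraries with a Cxcl5 count was thus larger with more cells put in. Cx3cl1 had a count in a single 10-cell library, replicate 9, at 3.72 CPM, and in no other input library.

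**Figure D5:**
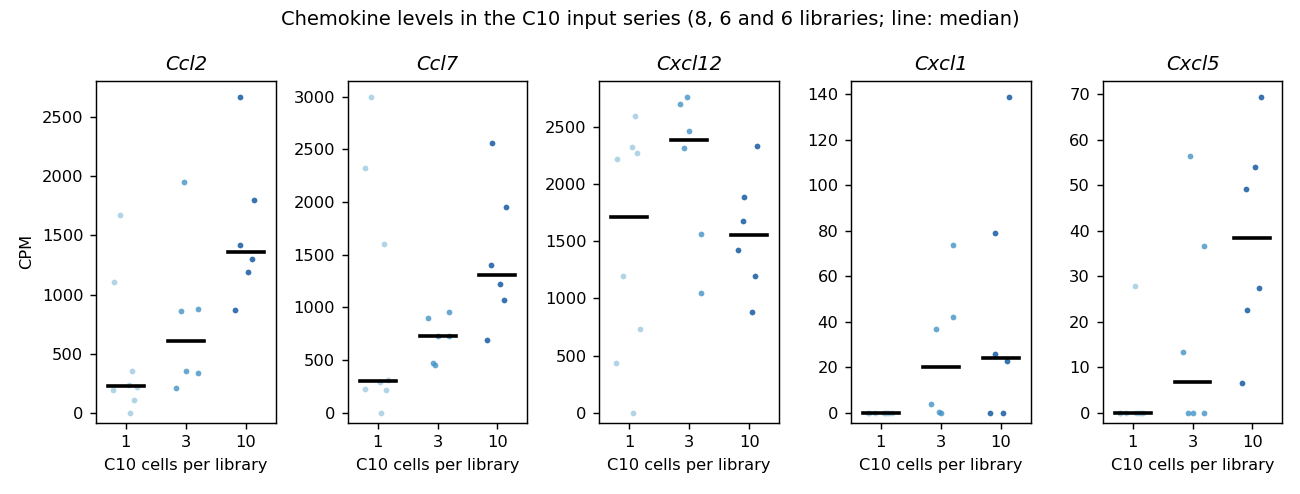
Levels of Ccl2, Ccl7, Cxcl12, Cxcl1 and Cxcl5 (CPM, y axis, a separate linear scale for each gene) in the C10 input libraries of 1 cell (n = 8), 3 cells (n = 6) and 10 cells (n = 6), 1 point per library with a line at the median. Cxcl12 is above 0 in all libraries but the 1-cell replicate 1, and Cxcl5 is above 0 in 6 of 6 libraries of 10 cells and in 1 of 8 of 1 cell.

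Libraries of 10 and of 3 cells were compared with the quasi-likelihood test of edgeR. At an adjusted p under 0.05 it called 0 of 13602 genes (percent called 0), with 1592 at an unadjusted p under 0.05, and 0 of the 5 members tested. By other tools, limma called 0 genes and DESeq2 564 (4.15%), again 0 of the members. Since no culture is named, the p-values measure only the spread between these libraries, which may be technical. The log2 difference of Ccl7, 10 cells over 3, was 0.95 (SE 0.31, n = 6 against 6), with an edgeR p of 0.00835 and an adjusted p of 0.210. Ccl2 differed by 0.89 (SE 0.47, edgeR adjusted p = 0.539) and Cxcl12 by -0.58 (SE 0.28, edgeR adjusted p = 0.446). The median of all genes was 0.08. Cxcl1 (0.73, SE 1.75) and Cxcl5 (1.00, SE 1.60) had errors larger than their differences. Each SE given here was derived from the difference and its F statistic, so it restates the test and is no separate estimate. No member's difference passed the threshold after adjustment.

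The 10-cell and the 1-cell libraries were compared without a test, as the latter are single cells of no named culture. Pooled Ccl2 was 1578 CPM with 10 cells and 588 CPM with 1 cell, Ccl7 1534 and 1128 CPM, and Cxcl12 1572 and 1533 CPM. Summed leukocyte markers also differed between the input groups: 0 to 75.0 CPM with 1 cell (median 0.0735), 0.0713 to 97.3 CPM with 3 (median 33.4) and 7.82 to 120 CPM with 10 (median 62.8). Of these 10 markers, 3, 6 and 4 had a count, Cd14 in 1 of 8, 4 of 6 and 6 of 6 libraries, while Ptprc was at 0, and their part in the result was not tested. Of 13305 genes counted in 50% or more of the 10-cell or the 1-cell libraries, 3961 (29.8%) differed at least 4-fold, 3305 (24.8%) of them higher with 10 cells. Of 5 members compared, 2 did, both higher with 10 cells. They were Cxcl5, at 40.0 against 4.79 CPM, and Cxcl1, at 44.7 against 0 CPM. Both met the filter only through the 10-cell libraries. Cxcl5 had a count in 6 of 6 of these against 1 of 8 with 1 cell, and Cxcl1 in 4 of 6 against 0 of 8. A pool of 10 cells holds a gene of few cells more often than 1 cell does. The filter and the pooling thus favour this direction, which is no separate result. The C10 single cells and the 1-cell input libraries are both single C10 cells from separate parts of the series. Their pooled levels were 693 and 588 CPM for Ccl2, 692 and 1128 CPM for Ccl7, and 1393 and 1533 CPM for Cxcl12, and 0 of 3 members compared passed 4-fold against 29.5% of 12034 genes.

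Other genes of the same signalling were counted from lists. Some of these lie wholly inside another gene and were at 0, which is no reading of their expression. They were 2 of the other chemokine ligands, 3 of the other cytokines, 1 receptor and 1 interferon response gene. Of 24 other chemokine ligands in the tables, 12 had a count in some library and 1, Ccl25, met the filter on the share of cells. Ccl25, a thymic and gut chemokine, had a count in 18 C10 and 7 SVEC cells, at 19.4 and 5.34 pooled CPM. Ccl8, Ccl9 and Ccl28 had a count in 4, 6 and 6 C10 cells and in 0 SVEC cells. Of 20 other cytokines, 11 had a count and 5 were compared, of which 1 passed 4-fold toward SVEC and 0 toward C10. That gene was Kitl, the ligand of the receptor Kit, at 8.38 CPM in C10 cells and 75.6 CPM in SVEC cells, 9.03-fold higher in SVEC. Mif, a broadly made cytokine, was in 46 of 46 C10 cells and 46 of 48 SVEC cells at 1593 and 1483 CPM. Il33, an alarmin, was at 54.0 and 26.2 CPM, and Il18, matured by the inflammasome, at 58.3 and 42.8 CPM. Il10 had a count in 28 C10 and 15 SVEC cells but at 0.926 and 0.689 CPM.

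Of 15 receptors of the members, 9 had a count in some library and 1 was compared. Il6st, the shared signalling subunit for Il6, had 31.7 CPM in C10 cells and 37.3 CPM in SVEC cells. Ackr3, a scavenger of Cxcl12, had a count in 5 cells of each line. Ccr2 and Cxcr4, the receptors of Ccl2 and Cxcl12, had no count in either line, which allows a share of cells with a count of up to 6.52% in C10 and 6.25% in SVEC by a limit of 3 cells, or 7.71% and 7.40% by the exact interval.

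Of 24 NF-kB pathway genes, 20 were compared, 2 passed 4-fold toward C10 and 2 toward SVEC, with a median log2 ratio of 0.20 against -0.003 over all genes. Rela, the main activating subunit, had a level of 107 CPM in C10 cells and of 90.8 CPM in SVEC cells, and Tnfrsf1a, a receptor of TNF, at 83.9 and 81.9 CPM. Nfkbib, an inhibitor, was at 60.8 and 28.9 CPM and Tnfaip2 at 36.3 and 15.8 CPM. Of 12 interferon response genes, 10 were compared and 6 passed 4-fold toward SVEC and 0 toward C10, with a median log2 ratio of -2.91. Isg15, a ubiquitin-like protein induced by interferon, reached 7.38 CPM in C10 cells and 315 CPM in SVEC cells, and Ifit3 was at 0 and 471 CPM. Irf3 was at 27.2 and 41.5 CPM. Cxcl10, the member known as an interferon target, could not be read beside them.

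Of 9 genes for decay of these mRNAs or for cutting of the proteins, 6 were compared and 1, Mmp2, passed 4-fold toward C10. Mmp2, a protease that can cut chemokines, was at 75.8 CPM in C10 and had no count in 48 SVEC cells. Adam10, which sheds Cx3cl1, was at 93.1 and 129 CPM, Elavl1, which stabilizes such mRNAs, at 85.0 and 79.6 CPM, and Zfp36l2, which promotes their decay, at 59.6 and 32.4 CPM. Leukocyte markers, 10 in all, summed to a median of 0 CPM in both lines, with a highest cell of 88.4 CPM in C10 and 349 CPM in SVEC, and Ptprc had no count.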

How the data were processed

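The members and gene lists were chosen with earlier results of these data known. The deposited files hold whole-number read counts per gene, 1 file per library, made by the authors from single reads of 150 bases. Per the submitters' processing notes, FastQC, STAR and HTSeq were used; versions, genome build, annotation, strand setting and overlap handling are not given in the sources used here. The 5 closing counters, which name no gene, were left out of totals, and 0 columns belong to no sample. Groups and replicate numbers came from the labels. Libraries under 1000 counts were left out. No 2 libraries agreed within sampling noise (lowest chi-square per degree of freedom 3.23). Pooled CPM, shares of cells and 4-fold calls (genes with a count in at least 25% of cells, or 50% of input libraries, of either group) were computed in Python 3.11.15 with pandas 2.3.3 and scipy 1.17.1.

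Counts of 10-cell and 3-cell libraries were tested with edgeR 4.0.16 in R 4.3.3 (TMM, quasi-likelihood F test, Benjamini-Hochberg), with limma 3.58.1 on log2(CPM + 1) and DESeq2 1.42.0 as alternatives. Overlap of genes was read from RefSeq for GRCm38.p6, which matched 38730 symbols, and from GENCODE M21. All 10 members are named. From each list up to 4 genes with the highest share of cells with a count are named (1 such gene is not reported here), and for likeness the 3 genes with the highest Spearman rho; Kdr, Vwf, the Sftp genes, Kitl, Cd14, Ptprc, Ccr2, Cxcr4, Csf2 and Ifit1 were named after their values were seen.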

Additional observations from a re-analysis of the deposited data

Results flagged for a closer look

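In 15 sets of member values over the input groups, 2 had 1 library apart from all others by Dixon's criterion. Cxcl5 was at 27.9 CPM in the 1-cell replicate 13 and at 0 in the other 1-cell libraries. Cx3cl1 was at 3.72 CPM in the 10-cell replicate 9 and at 0 in the other 10-cell libraries. With all other libraries at 0, any count in a single library meets the criterion, so its usual chance rate of about 1 in 20 does not apply to these.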

How the results depend on the processing

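Between 10 and 3 cells, 0 members were called under every alternative tried, among them each library left out in turn (0 to 0), the replicate block (0 members called, 0 of 13602 genes), limma and DESeq2, although DESeq2 called 564 genes and edgeR 0. The labels do not say what a shared replicate number means. Same-numbered libraries had correlations of -0.018 to 0.053 in their deviations from the group means. Of the 10-cell libraries, 2 of 6 were closest to their own number. These few noisy libraries cannot decide whether the numbers pair them. The difference of Cxcl1 turned from 0.73 to -0.10 on the log2 scale without 10-cell replicate 5, and leaving out 1 library at a time gave -0.10 to 1.38. That of Cxcl5 went from 1.00 to 5.12 with the replicate block and to 2.49 with limma, and passed the threshold with neither. The lowest adjusted p of Ccl7 over edgeR and the alternatives was 0.199. Between C10 and SVEC, the members past 4-fold went from 1 to 3 without the filter on the share of cells, which admits Cxcl5 and Cx3cl1. Leaving out the top library of a member was chosen after seeing the data. No paired analysis was possible for the single cells because that comparison comes from no test. Depth limits rare members: 3 counts correspond to 6.90 CPM in the median SVEC library and 1.59 CPM in the median C10 single-cell library.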
